A study of Vitis vinifera with 24 samples.

Results

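The 9 loci described here encode the early enzymes of flavonoid synthesis in grapevine (Vitis vinifera), from chalcone synthase (CHS) to flavonoid 3'-hydroxylase (F3'H). They were chosen by identifier for their enzyme family and not for their values, although earlier results of these data were known. They are 9 of the 29971 loci in the deposited expression table. The table gives identifiers without names or descriptions, so the family given to each locus comes from published assignments. CHS is represented by VIT_14s0068g00920, VIT_14s0068g00930 and VIT_05s0136g00260. Chalcone isomerase (CHI) is represented by VIT_13s0067g02870 and VIT_13s0067g03820, flavanone 3-hydroxylase (F3H) by VIT_04s0023g03370 and VIT_18s0001g14310, and F3'H by VIT_17s0000g07200 and VIT_17s0000g07210. The division of reads shared by near-identical copies was not given in the sources used here, so the split between VIT_14s0068g00920 and VIT_14s0068g00930, and between VIT_17s0000g07200 and VIT_17s0000g07210, which have neighbouring identifiers, is uncertain.

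CHS joins a coumaroyl unit from the phenylpropanoid pathway with malonyl units to form naringenin chalcone, and in grapevine it draws on the same substrates as stilbene synthase, which makes resveratrol. CHI closes the chalcone to the flavanone naringenin, F3H turns flavanones into dihydroflavonols, and F3'H adds a hydroxyl group to the B ring, which leads towards quercetin and cyanidin. The products feed flavonols, anthocyanins and the flavan-3-ols that build condensed tannins. In petunia and maize, flavonols made in the anther are needed for pollen germination.

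RNA was measured in cultivars labelled highly competent (Sangiovese, SG) and poorly competent (Cabernet Sauvignon, CS) for somatic embryogenesis, the formation of embryos from cultured tissue. In each cultivar the groups were anthers excised from immature flowers, undifferentiated callus at day 40 of culture, and at month 4 embryogenic callus (EC) and non-embryogenic callus (NEC), with 3 libraries in each of the 8 groups. All callus came from anthers kept in the dark on medium holding 2,4-D, an auxin, and BAP, a cytokinin, and the month 4 callus had spent its last month on a medium with NOA, BAP, IAA and activated charcoal. EC and NEC therefore differ from day 40 callus in medium as well as in age, and these cannot be told apart. EC and NEC were classed by eye under a stereomicroscope, so a callus may hold cells of the other class. The labels call the replicates biological, and the p-values below rest on the spread between these libraries.

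The values are FPKM, fragments relative to the length of the transcript and the mapped fragments of the library, which allow levels to be compared between loci per unit of length. Columns summed to between 729402 and 938765 FPKM, and the number of reads behind them is unknown. Relative depth, estimated from the lowest values, ran from 0.889 to 1.50. Marker loci of petal and stamen identity (B class, 2 loci) were checked against the tissue labels. Their summed level was 843 ± 57.6 FPKM in SG and 1001 ± 79.8 in CS anthers, 392 ± 12.8 and 1108 ± 10.7 in SG and CS day 40 callus, 1.82 ± 1.21 and 30.7 ± 19.0 in SG and CS EC, and 25.2 ± 6.23 and 17.0 ± 3.93 in SG and CS NEC (SD, n = 3 each). Day 40 callus thus held B class transcripts, mostly of VIT_18s0001g01760, which had a mean of 360 FPKM in SG and 1066 in CS day 40 callus. The AGAMOUS class sum (2 loci) was 18.9 ± 3.28 and 11.9 ± 4.16 FPKM in SG and CS EC, against 216 ± 8.54 and 295 ± 36.1 in NEC, and the SEPALLATA class sum (3 loci, 1 of them at 0 in all NEC libraries) was 63.1 ± 2.79 and 3.66 ± 1.00 against 276 ± 18.9 and 282 ± 25.5. NEC thus held floral organ transcripts of these classes too. At day 40 the AGAMOUS class sum was 326 ± 2.08 FPKM in SG and 379 ± 5.52 in CS, and the SEPALLATA class sum 360 ± 2.81 and 398 ± 6.60. No embryo or callus marker was used.

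Some libraries stood apart for these 9 loci. SG anther replicate 1 was the lowest of its group for 8 of the 9, and the highest SG anther library exceeded it 61.5-fold for VIT_14s0068g00920 and 41.7-fold for VIT_14s0068g00930. Over all loci of at least 10 FPKM in SG anthers, the highest library exceeded the lowest by a median of 1.21-fold, with a 99th percentile of 5.47-fold. CS NEC replicate 2 was the lowest of its group for 9 of 9, at 0.325 to 0.633 times the mean of the other two libraries, while the median of all loci of at least 10 FPKM was 1.00 times. In anthers and EC, replicate 3 lay between replicates 1 and 2 for 8 or 9 of the 9 loci in each of the 4 groups, and for 55.2% to 64.4% of all tested loci, against 31.1% to 37.6% in NEC and day 40 callus. Day 40 libraries were the closest to each other, with coefficients of variation over the 9 loci whose median was 2.04% in SG and 2.29% in CS, against 6.47% to 52.5% in the other groups. Whether the anther, EC and day 40 libraries stem from separate material was not tested, and p-values that use them assume that they do.

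All 9 loci were expressed in every library, from 0.676 FPKM for VIT_14s0068g00920 in SG anther replicate 1 to 1819 FPKM for VIT_18s0001g14310 in CS day 40 replicate 3. Day 40 callus of CS had the highest mean of the 8 groups for each of the 9 loci, and day 40 callus of SG the next highest for each. The F3'H loci summed to the lowest level of the 4 enzyme steps in 24 of 24 libraries. Among the steps, the F3H sum at day 40 was 1286 ± 21.8 FPKM in SG and 2366 ± 62.8 in CS, while the F3'H sum was 129.7 ± 3.64 and 321 ± 3.42 (SD, n = 3 each). In anthers the F3'H loci summed to 5.13 ± 1.70 FPKM in SG and 5.46 ± 0.796 in CS, beside CHS sums of 211 ± 180.3 and 194 ± 53.2. Less RNA of these loci in a bulk sample can come from fewer cells that make it or from less of it per cell, and these cannot be told apart.

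**Figure D1:**
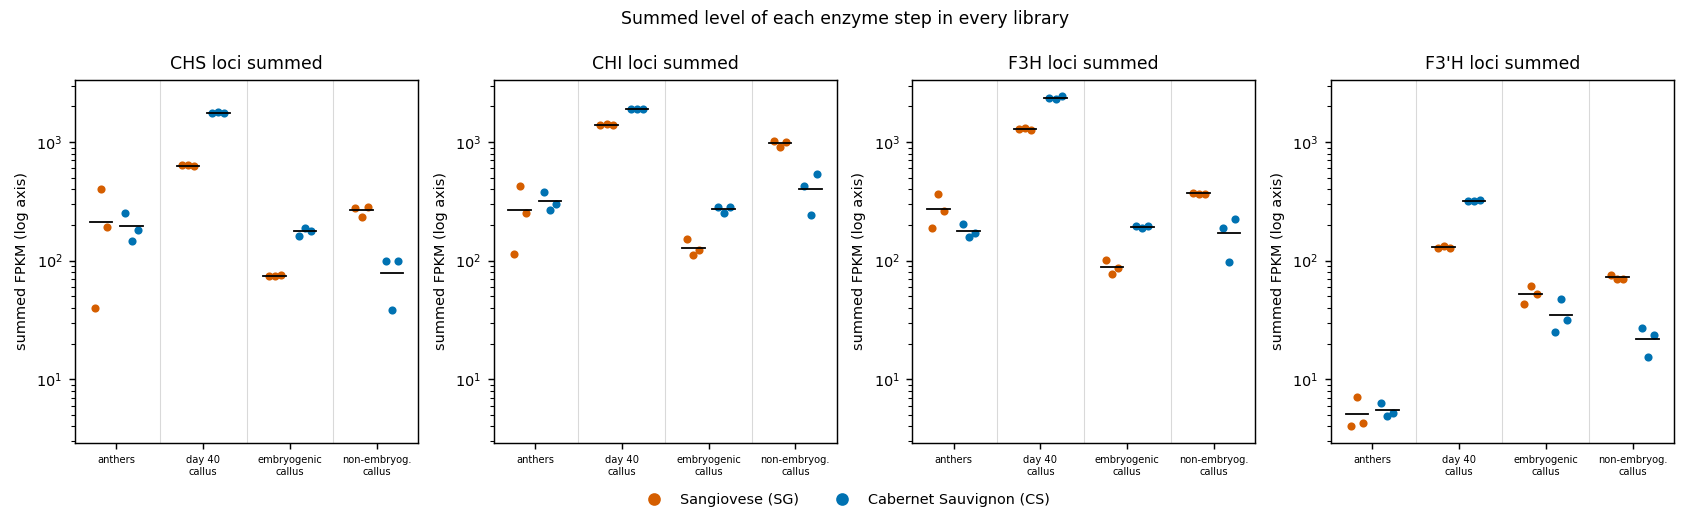
Summed FPKM (log axis) of the loci of each enzyme step in every library, by tissue, with SG in orange left of CS in blue, 1 point per library and a black bar at the mean. The day 40 libraries are the highest at every step, and within each library the F3'H sum is the lowest of the 4 steps.

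Among the CHS loci, VIT_14s0068g00920 had 0.676, 41.6 and 19.5 FPKM in SG anthers and 42.2, 14.3 and 23.8 in CS anthers. Day 40 callus held 209, 218 and 204 in SG and 612, 634 and 639 in CS, above every anther library. In month 4 callus the values were 52.8, 48.8 and 52.5 in SG EC and 108, 87.3 and 106 in CS EC, against 74.7, 62.6 and 77.2 in SG NEC and 24.8, 10.5 and 25.7 in CS NEC. From the top, the order was CS day 40, SG day 40, CS EC, SG NEC and SG EC with no overlap between neighbours, and below these the anther groups and CS NEC overlapped. For VIT_14s0068g00930, anthers ranked with callus: SG anthers had 3.76, 157 and 71.2 and CS anthers 113, 44.2 and 67.4 FPKM, and day 40 callus 113, 113 and 104 in SG and 313, 325 and 314 in CS. EC held 9.21, 14.9 and 12.2 in SG and 25.6, 48.6 and 35.8 in CS, and NEC 34.3, 30.9 and 34.3 in SG and 9.75, 3.57 and 12.2 in CS. The CS day 40 libraries stood alone at the top for this locus, and the SG day 40, SG anther and CS anther libraries overlapped. VIT_05s0136g00260 had 35.4, 201 and 102 FPKM in SG anthers and 97.6, 89.2 and 91.9 in CS anthers, then 317, 311 and 316 in SG and 839, 824 and 799.9 in CS at day 40. It was lowest in EC, with 12.1, 10.0 and 11.1 in SG and 27.1, 54.5 and 37.8 in CS, against 172, 139.6 and 172 in SG NEC and 65.5, 24.6 and 61.2 in CS NEC. The SG EC libraries lay below all other libraries for VIT_05s0136g00260, and the CS EC and CS NEC libraries overlapped.

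The CHI loci stood far apart in anthers. VIT_13s0067g02870 held 108, 413 and 240.1 FPKM in SG anthers and 369, 259.96 and 289 in CS anthers, whereas VIT_13s0067g03820 held 5.97, 17.8 and 12.0 and 13.4, 10.3 and 10.4. At day 40 both were high: VIT_13s0067g02870 had 639, 644 and 638 in SG and 1028, 1053 and 1072 in CS. VIT_13s0067g03820 had 764, 770.4 and 768 in SG and 863, 857 and 823 in CS at that stage. In EC VIT_13s0067g03820 stood at 36.5, 19.2 and 23.7 in SG and 63.1, 92.8 and 76.7 in CS, against 717, 629.7 and 713 in SG NEC and 305, 169 and 423 in CS NEC. For VIT_13s0067g03820 every step in the order CS day 40, SG day 40, SG NEC, CS NEC, CS EC, SG EC and anthers was free of overlap, and the anther groups of the cultivars overlapped each other. VIT_13s0067g02870 had 115, 92.3 and 99.1 in SG EC and 222, 159.6 and 208 in CS EC, against 302, 273 and 296 in SG NEC and 119, 74.0 and 116 in CS NEC. The SG EC and CS NEC libraries overlapped at the bottom of its order.

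An F3H locus reached the highest levels of the set. VIT_18s0001g14310 held 973, 974 and 946 FPKM in SG and 1729, 1727 and 1819 in CS day 40 callus. VIT_04s0023g03370 held 322, 329 and 316 in SG and 605, 598 and 619.6 in CS at that stage, below VIT_18s0001g14310 in every library. In anthers VIT_18s0001g14310 had 26.8, 81.3 and 48.6 in SG and 99.3, 66.9 and 73.5 in CS, and VIT_04s0023g03370 had 161, 284 and 213 in SG and 106, 91.6 and 96.5 in CS. VIT_04s0023g03370 was the locus whose SG and CS anthers were apart, with all SG libraries above all CS libraries. In EC VIT_04s0023g03370 held 51.4, 50.0 and 49.8 in SG and 96.2, 105 and 99.3 in CS, against 159.8, 142 and 157 in SG NEC and 75.0, 38.4 and 81.0 in CS NEC. For VIT_18s0001g14310 the EC values were 50.5, 27.2 and 36.5 in SG and 98.7, 84.4 and 95.4 in CS, and the NEC values 213, 225 and 211 and 112, 59.9 and 145. Below SG NEC, all neighbours in the order of VIT_18s0001g14310 overlapped.

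The F3'H loci followed the same order of groups, with VIT_17s0000g07200 above VIT_17s0000g07210 in all libraries. In anthers VIT_17s0000g07200 had 3.08, 6.15 and 3.57 FPKM in SG and 5.36, 3.90 and 4.44 in CS, the lowest groups for this locus. Day 40 callus held 114, 119 and 111 in SG and 288, 285 and 290.3 in CS. In EC it stood at 35.4, 50.8 and 42.3 in SG and 20.5, 39.0 and 25.3 in CS, against 64.8, 60.6 and 61.0 in SG NEC and 21.9, 12.7 and 19.9 in CS NEC. The SG libraries thus exceeded the CS libraries in NEC without overlap, and the EC groups overlapped. VIT_17s0000g07210 had 0.950, 0.934 and 0.704 in SG and 1.01, 0.957 and 0.727 in CS anthers, 14.1, 15.2 and 15.7 and 32.5, 32.8 and 34.5 in SG and CS day 40 callus, 7.51, 10.9 and 9.78 and 4.72, 8.55 and 6.02 in EC, and 11.0, 9.40 and 9.80 and 5.03, 2.73 and 3.60 in NEC. Its anther values were near 1 FPKM, where the log2(FPKM + 1) scale used for the tests understates differences.

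**Figure D2:**
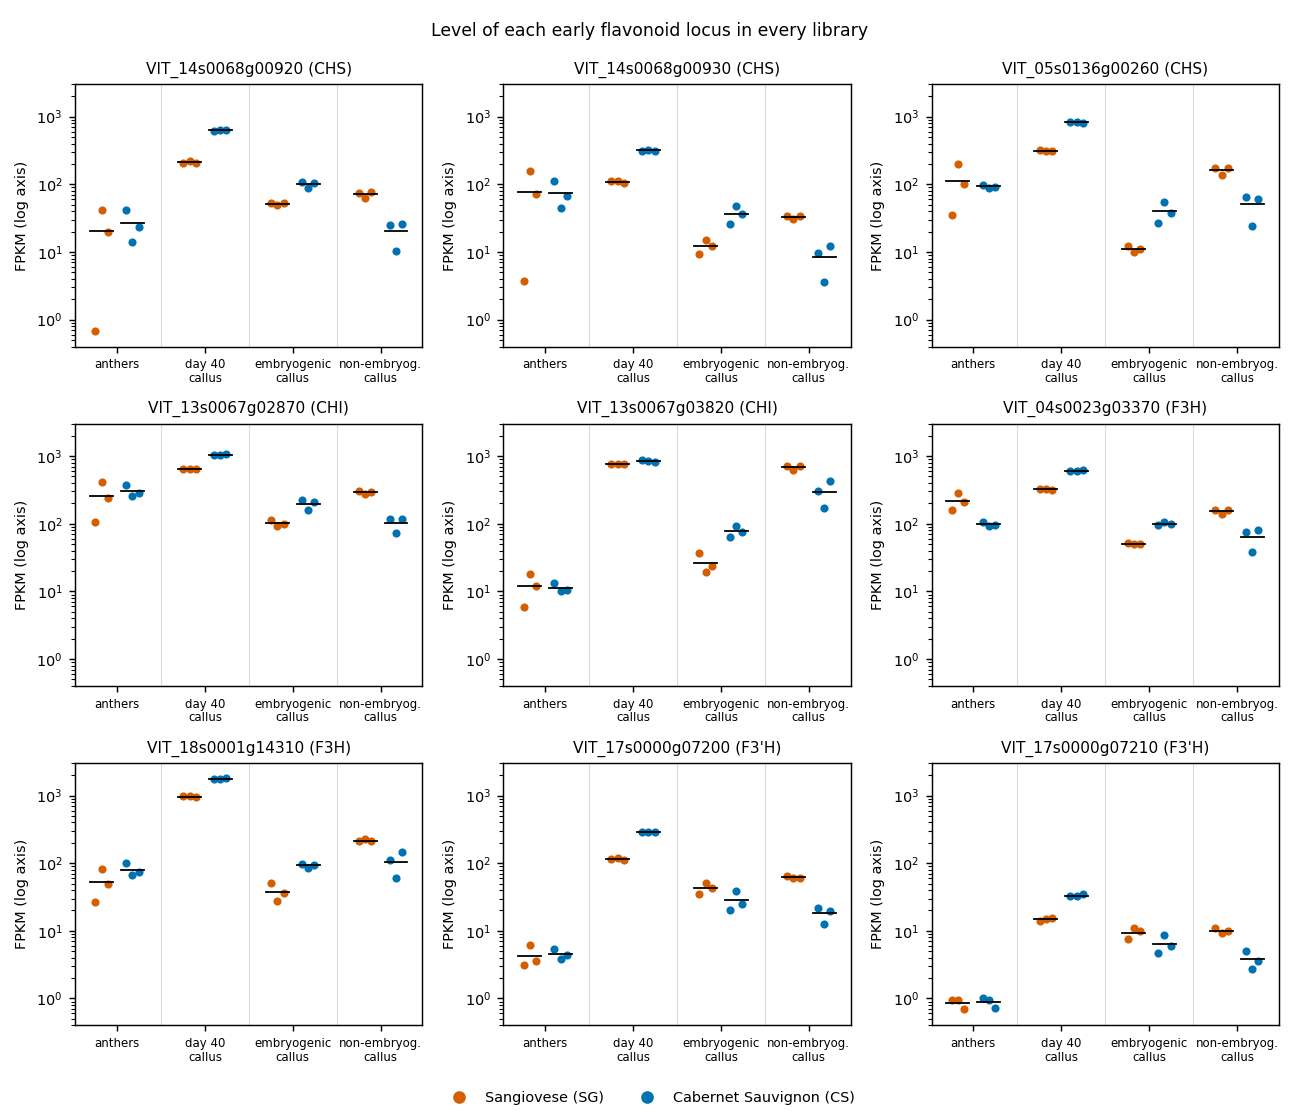
FPKM (log axis) of each of the 9 loci in every library, by tissue, with SG in orange left of CS in blue, 1 point per library and a black bar at the mean. CS day 40 callus is the highest group in each panel, and the SG anther libraries are widely spread for the CHS loci.

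The step from anthers to day 40 callus asks what changed as anther tissue formed callus. Transcripts of the early flavonoid enzymes rose at every step, and most for VIT_13s0067g03820 (CHI) and VIT_17s0000g07200 (F3'H). Differences were tested with limma on log2(FPKM + 1) over 21568 loci, and a locus was called at a Benjamini-Hochberg adjusted p under 0.05. In SG, 8 of the 9 loci were called higher and 0 lower, where 36.8% of all tested loci were called higher and 39.9% lower. In CS, 9 of 9 were higher and 0 lower, beside 35.6% and 43.0% of all tested loci. The median log2 difference of the 9 loci was 3.10 in SG and 4.18 in CS, against -0.03 and -0.08 over all tested loci.

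VIT_13s0067g03820 rose by 6.01 ± 0.31 in SG (log2 difference ± standard error, adjusted p 1.09e-12) and by 6.11 ± 0.31 in CS (adjusted p 6.71e-13), 64.4-fold and 74.7-fold as ratios of mean FPKM. For VIT_17s0000g07200 the differences were 4.50 ± 0.22 and 5.71 ± 0.22, and for VIT_17s0000g07210 3.10 ± 0.17 and 4.18 ± 0.17, in SG and CS. VIT_18s0001g14310 rose by 4.32 ± 0.31 in SG and 4.46 ± 0.31 in CS. The other CHI locus, VIT_13s0067g02870, which was above 100 FPKM in all anther libraries, rose by 1.54 ± 0.30 in SG and 1.79 ± 0.30 in CS. Among CHS loci, VIT_14s0068g00920 rose by 4.22 ± 0.72 in SG and 4.63 ± 0.72 in CS, and VIT_05s0136g00260 by 1.79 ± 0.42 and 3.13 ± 0.42. VIT_14s0068g00930 rose by 2.17 ± 0.78 in CS (adjusted p 0.0164), while in SG its difference of 1.55 ± 0.78 did not pass (adjusted p 0.0789, 95% interval -0.09 to 3.19).

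The rise differed between the cultivars for 3 of the 9 loci, all with a smaller rise in SG, beside 21.3% of all tested loci called lower and 28.3% called higher in the same interaction. VIT_04s0023g03370 rose by 0.59 ± 0.20 in SG and 2.62 ± 0.20 in CS, a difference of -2.03 ± 0.28 (adjusted p 8.24e-06). For VIT_17s0000g07200 the difference between the cultivars was -1.20 ± 0.31 (adjusted p 0.00337), and for VIT_17s0000g07210 -1.08 ± 0.24 (adjusted p 0.00102). Without SG anther replicate 1, 7 of 9 loci were called in the interaction, and the share of all tested loci then called is not given here. The SG rise of VIT_04s0023g03370 was then 0.39 (adjusted p 0.0857), that of VIT_05s0136g00260 1.13 and that of VIT_13s0067g02870 1.02. The SG difference of VIT_14s0068g00930 was 0.054 without SG anther replicate 1 (adjusted p 0.917). Its call was gained in SG without SG anther replicate 2 (2.58, adjusted p 0.00309) or 3 (2.02, adjusted p 0.0433) and lost in CS without CS anther replicate 2 (1.85, adjusted p 0.0653). The SG call of VIT_04s0023g03370 was also lost with equal column sums (0.30, adjusted p 0.161), which moved the median of all tested loci to -0.25 in SG and -0.29 in CS, and 37.2% of called loci were then higher in SG, against 48.0% as deposited. With each day 40 group averaged into 1 sample, the calls of VIT_04s0023g03370 in SG, VIT_14s0068g00930 in CS and VIT_17s0000g07200 and VIT_17s0000g07210 in the interaction were lost (adjusted p 0.115, 0.138, 0.089 and 0.051).

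Between day 40 and month 4 the early flavonoid loci fell. All of them were called lower in SG EC, CS EC and CS NEC, and 5 of 9 in SG NEC, the group that stayed nearest to its day 40 level. Every difference was negative in SG NEC too, from -2.15 for VIT_18s0001g14310 to -0.16 for VIT_13s0067g03820. In SG EC over SG day 40 callus, 9 of 9 loci were called lower and 0 higher, beside 29.7% lower and 47.4% higher of all tested loci. In CS EC over CS day 40 callus the count was again 9 lower and 0 higher, beside 26.5% and 52.0%. CS NEC over CS day 40 callus gave 9 lower and 0 higher, where 31.2% and 32.0% of all tested loci were called. In SG NEC over SG day 40 callus, 5 loci were lower and 0 higher, beside 21.8% and 25.7%. The median log2 difference of the 9 loci was -1.07 in SG NEC, against -3.95 in CS NEC, -2.65 in SG EC and -3.12 in CS EC.

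In EC over day 40 callus, VIT_13s0067g03820 fell, with log2 differences of -4.86 ± 0.31 in SG and -3.45 ± 0.31 in CS. VIT_05s0136g00260 had differences of -4.71 ± 0.42 in SG and -4.39 ± 0.42 in CS, and VIT_18s0001g14310 of -4.67 ± 0.31 and -4.23 ± 0.31. The smallest falls in SG EC were those of the F3'H loci, -1.42 ± 0.22 for VIT_17s0000g07200 and -0.63 ± 0.17 for VIT_17s0000g07210, where CS EC gave -3.35 ± 0.22 and -2.24 ± 0.17. In NEC over day 40 callus, VIT_13s0067g03820 was at -0.16 ± 0.31 in SG and not called (adjusted p 0.707, 95% interval -0.81 to 0.48), while in CS it fell, at -1.60 ± 0.31 (adjusted p 0.000163). The CHS loci of SG NEC had differences of -1.55 ± 0.72, -1.70 ± 0.78 and -0.97 ± 0.42 for VIT_14s0068g00920, VIT_14s0068g00930 and VIT_05s0136g00260, none called (adjusted p 0.0838, 0.0824 and 0.0663). For these loci all SG NEC libraries lay below all SG day 40 libraries, but how many of all tested loci lacked overlap was not counted. In CS NEC the same loci were called at -4.98 ± 0.72, -5.20 ± 0.78 and -4.12 ± 0.42. Whether these changes differed between the cultivars was not tested. The B class marker sum fell over the same interval in both cultivars, to the values given above, and its part in the result was not tested. With each day 40 group averaged into 1 sample, 2 of the 9 loci were called in SG NEC over day 40, with VIT_13s0067g02870, VIT_17s0000g07200 and VIT_17s0000g07210 lost (adjusted p 0.101, 0.0826 and 0.169), and the EC falls of VIT_14s0068g00920 in both cultivars and VIT_17s0000g07210 in SG were no longer called (adjusted p 0.136 for VIT_14s0068g00920 in SG, 0.0536 in CS and 0.0506 for VIT_17s0000g07210). In a fit to the compared groups alone, 8 were called in SG NEC, with VIT_14s0068g00920, VIT_14s0068g00930 and VIT_05s0136g00260 gained. The share of all tested loci called in these alternative fits is not given here. Median-of-ratios scaling moved the median of all tested loci in EC over day 40 to 0.01 in SG and 0.03 in CS, against 0.20 and 0.32 as deposited, and the share of called loci that were higher to 51.0% and 51.9%, against 61.5% and 66.2%, with all 9 members still called lower. In SG NEC over day 40, 64.9% of called loci were higher with equal column sums, against 54.1% as deposited.

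Comparing EC with NEC of the same cultivar asks how callus classed as embryogenic differed from callus classed as non-embryogenic. In Sangiovese the early flavonoid loci were lower in EC: 6 of 9 were called lower and 0 higher, beside 32.2% lower and 46.1% higher among all tested loci. In Cabernet Sauvignon 1 locus was called lower and 6 higher in EC, beside 27.9% and 51.4%, so the count of higher loci lies near the background. The median log2 difference of the 9 loci was -1.50 in SG, against 0.15 over all tested loci, and 0.63 in CS, against 0.31. VIT_13s0067g03820, a CHI locus, was the locus called lower in EC in both cultivars.

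In SG, VIT_13s0067g03820 fell to 26.4 ± 8.97 FPKM in EC, against 686 ± 49.0 in NEC (SD, n = 3 each), a log2 difference of -4.69 ± 0.31 (adjusted p 4.5e-11). VIT_05s0136g00260 was at 11.1 ± 1.02 FPKM in SG EC and 161 ± 18.7 in SG NEC, a difference of -3.74 ± 0.42 (adjusted p 1.11e-07). VIT_18s0001g14310, VIT_04s0023g03370 and VIT_13s0067g02870 fell, with differences of -2.52 ± 0.31, -1.58 ± 0.20 and -1.50 ± 0.30 (adjusted p 4.15e-07, 4.95e-07 and 0.000152). For VIT_17s0000g07200 the difference was -0.54 ± 0.22 (adjusted p 0.0308), and this call was lost without any 1 of 5 of the 6 libraries, at an adjusted p from 0.0522 without SG NEC replicate 2 to 0.129 without SG EC replicate 1. It held without SG EC replicate 2, and was lost with equal column sums (-0.41, adjusted p 0.0907) and with no filter (adjusted p 0.0507). VIT_14s0068g00920 and VIT_14s0068g00930 gave -0.46 ± 0.72 and -1.41 ± 0.78 and were not called (adjusted p 0.571 and 0.109). Their EC libraries all lay below their NEC libraries, but how many of all tested loci lacked overlap was not counted. Both were called in a fit to the compared groups alone (adjusted p 0.00409 and 0.000571), where their standard errors were 0.088 and 0.17. VIT_17s0000g07210 gave -0.10 ± 0.17 (adjusted p 0.609, 95% interval -0.45 to 0.25).

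In CS, VIT_13s0067g03820 stood at 77.5 ± 14.9 FPKM in EC and 299 ± 127 in NEC, a difference of -1.85 ± 0.31 (adjusted p 1.84e-05). VIT_14s0068g00920 rose to 100.3 ± 11.3 FPKM in EC, against 20.4 ± 8.54 in NEC, a difference of 2.34 ± 0.72 (adjusted p 0.00584), and VIT_14s0068g00930 by 2.08 ± 0.78 (adjusted p 0.0208). VIT_13s0067g02870 rose by 0.94 ± 0.30, VIT_04s0023g03370 by 0.69 ± 0.20, VIT_17s0000g07200 by 0.60 ± 0.22 and VIT_17s0000g07210 by 0.63 ± 0.17, with adjusted p of 0.00796, 0.0036, 0.0183 and 0.00208. VIT_05s0136g00260 and VIT_18s0001g14310 gave -0.27 ± 0.42 and -0.10 ± 0.31 and were not called. The CS rises depended on scaling: the median of all tested loci was itself 0.31 higher in EC and 0.00 after median-of-ratios scaling, under which VIT_14s0068g00920 (1.92) and VIT_13s0067g03820 (-2.28) were the loci still called. Under that scaling VIT_14s0068g00930, VIT_13s0067g02870, VIT_04s0023g03370, VIT_17s0000g07200 and VIT_17s0000g07210 stood at 1.68, 0.52, 0.27, 0.19 and 0.28, and 50.1% of all called loci were higher, against 64.8% with the deposited values. Without CS NEC replicate 2 the calls of VIT_14s0068g00930 (1.62), VIT_13s0067g02870 (0.72) and VIT_17s0000g07200 (0.37) were lost and VIT_04s0023g03370 stood at 0.36. Without CS EC replicate 2 the calls of VIT_14s0068g00930 (1.86) and VIT_17s0000g07200 (0.35) were lost. In a fit to the compared groups alone, those of VIT_04s0023g03370, VIT_17s0000g07200 and VIT_17s0000g07210 were lost (adjusted p 0.0736, 0.119 and 0.0698).

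The EC over NEC difference itself differed between the cultivars. In SG minus CS it was negative and called for 9 of 9 loci, and 0 were positive, beside 31.8% negative and 15.2% positive among all tested loci. The median interaction of the 9 loci was -2.45 on the log2 scale, against -0.16 over all tested loci, and -2.23 against 0.01 after median-of-ratios scaling. Of all called loci, 32.2% were positive with the deposited values and 53.3% after that scaling. The values were -2.80 ± 1.01, -3.48 ± 1.10 and -3.48 ± 0.59 for the CHS loci VIT_14s0068g00920, VIT_14s0068g00930 and VIT_05s0136g00260. The CHI loci VIT_13s0067g02870 and VIT_13s0067g03820 gave -2.45 ± 0.43 and -2.84 ± 0.44, and the F3H loci VIT_04s0023g03370 and VIT_18s0001g14310 -2.27 ± 0.28 and -2.42 ± 0.44. The smallest were those of the F3'H loci, -1.14 ± 0.31 for VIT_17s0000g07200 and -0.73 ± 0.24 for VIT_17s0000g07210. Adjusted p ran from 3.13e-06 for VIT_04s0023g03370 to 0.0296 for VIT_14s0068g00920.

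Leaving out 1 library of the compared groups at a time kept every interaction negative, and 7 of the 9 loci stayed called throughout. The spread was estimated over all 8 groups, so anther and day 40 libraries enter these standard errors and were not left out here. For VIT_14s0068g00920 in SG over CS anthers, the standard error was 0.72 with all libraries and 0.36 without SG anther replicate 1. VIT_14s0068g00920 ran from -3.01 to -2.41 and lost its call without CS EC replicate 1 or 3, CS NEC replicate 2, SG EC replicate 2, or SG NEC replicate 1 or 3, at an adjusted p up to 0.0782. VIT_17s0000g07210 ran from -0.91 to -0.53 and lost its call without CS EC replicate 2 or CS NEC replicate 2 (adjusted p 0.0509 and 0.0566). VIT_17s0000g07210 was also not called after median-of-ratios scaling (-0.57, adjusted p 0.0686) or with the compared groups alone (adjusted p 0.0788), and VIT_14s0068g00920 with a pseudocount of 0.1 (-2.87, adjusted p 0.0676). Without the third libraries of anthers and EC, an alternative chosen after seeing the data, the calls of VIT_14s0068g00920 and VIT_14s0068g00930 were lost (adjusted p 0.0949 and 0.0571). The other loci include VIT_13s0067g03820, which ran from -3.14 to -2.48, and VIT_04s0023g03370, which ran from -2.46 to -1.94. The AGAMOUS and SEPALLATA class marker sums were lower in EC than in NEC in both cultivars, as given above, although the SEPALLATA class locus VIT_14s0083g01050 was at 55.3 FPKM in SG EC and 51.7 in SG NEC on average, and their part in the result was not tested.

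**Figure D3:**
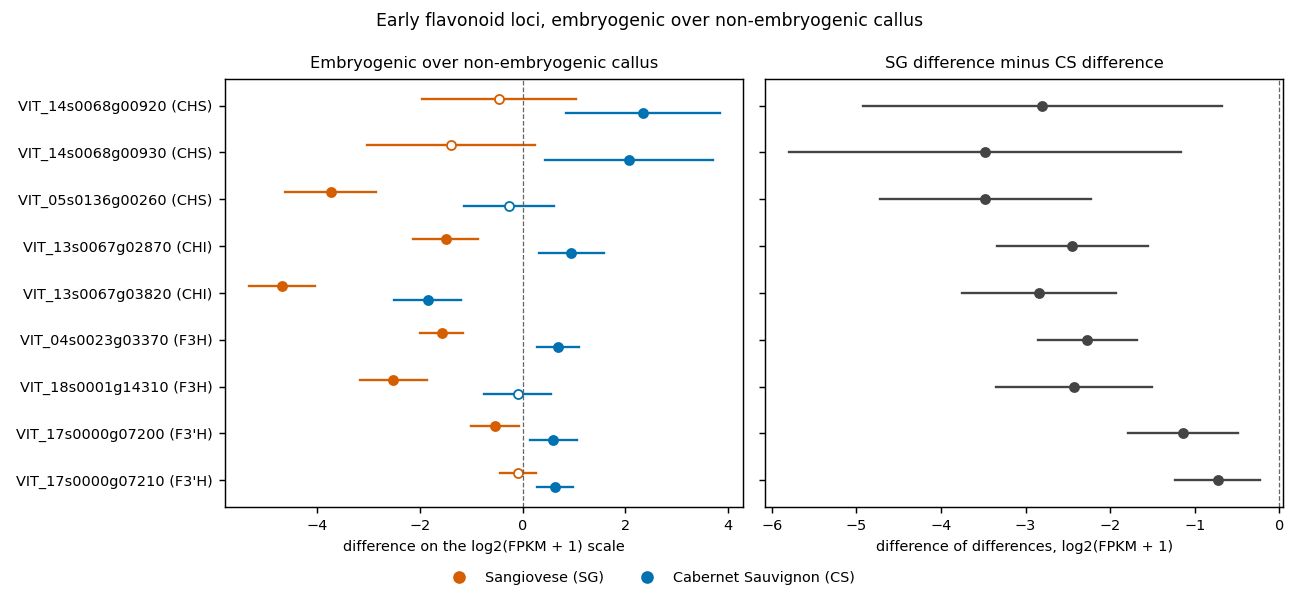
Log2 difference of EC over NEC for each of the 9 loci in SG and CS, and the SG minus CS interaction, with a line for the 95% interval, a filled point for a called locus and an open point for one not called. The interaction lies below 0 for all 9 loci, from -3.48 for VIT_14s0068g00930 to -0.73 for VIT_17s0000g07210.

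Set directly against each other, the cultivars changed places between tissues. In NEC, 9 of 9 loci were higher in SG than in CS and 0 lower, beside 31.7% higher and 21.7% lower among all tested loci. In EC, 2 loci were higher in SG and 5 lower, beside 19.3% and 32.1%. In day 40 callus 0 were higher in SG and 5 lower, beside 30.8% and 26.1%, and in anthers 1 was higher and 0 lower, beside 20.0% and 23.5%. These comparisons use the same libraries as EC over NEC and give no independent support to it.

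In NEC the SG excess ran from 1.12 ± 0.31 for VIT_18s0001g14310 to 1.98 ± 0.78 for VIT_14s0068g00930. No member had overlapping libraries, and the share of all tested loci without overlap was not counted. VIT_17s0000g07200 was at 62.1 ± 2.33 FPKM in SG and 18.2 ± 4.82 in CS NEC (adjusted p 1.77e-06), and VIT_04s0023g03370 at 153 ± 9.90 and 64.8 ± 23.1 (adjusted p 1.92e-05). VIT_13s0067g03820 stood at 686 ± 49.0 in SG and 299 ± 127 in CS, a difference of 1.29 ± 0.31 (adjusted p 0.0016), and VIT_13s0067g02870 gave 1.52 ± 0.30, VIT_05s0136g00260 1.77 ± 0.42 and VIT_17s0000g07210 1.23 ± 0.17. The calls of VIT_14s0068g00920 (1.86 ± 0.72, adjusted p 0.0357) and VIT_14s0068g00930 (adjusted p 0.0397) were lost when CS NEC replicate 2 was left out (1.46 and 1.52) or any 1 of the SG NEC libraries (adjusted p up to 0.0805 and 0.0818), and with no filter (adjusted p 0.0598 and 0.0659). The call of VIT_14s0068g00920 was also lost with a pseudocount of 0.1 (adjusted p 0.0741), and that of VIT_14s0068g00930 after median-of-ratios scaling (adjusted p 0.0524) or without CS NEC replicate 1 (2.14). The other 7 loci stayed called in each of these.

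In EC the 5 loci lower in SG were VIT_05s0136g00260 (-1.71 ± 0.42), VIT_13s0067g02870 (-0.93 ± 0.30), VIT_13s0067g03820 (-1.55 ± 0.31), VIT_04s0023g03370 (-0.98 ± 0.20) and VIT_18s0001g14310 (-1.30 ± 0.31), with adjusted p from 0.000372 to 0.0151. VIT_14s0068g00920 and VIT_14s0068g00930 had differences of -0.95 ± 0.72 and -1.50 ± 0.78, not called (adjusted p 0.287 and 0.118). Their SG libraries all lay below their CS libraries, but how many of all tested loci lacked overlap was not counted. The F3'H loci went the other way, with VIT_17s0000g07200 at 42.8 ± 7.71 FPKM in SG and 28.3 ± 9.61 in CS EC (0.62 ± 0.22, adjusted p 0.0245) and VIT_17s0000g07210 at 0.50 ± 0.17 (adjusted p 0.0177), but their libraries overlapped. The F3'H calls were lost without CS EC replicate 1 (0.42 and 0.33 for VIT_17s0000g07200 and VIT_17s0000g07210) or 3 (0.56 and 0.48), and without SG EC replicate 2 (0.49 and 0.40) or 3 (0.62 and 0.47). That of VIT_13s0067g02870 was lost without CS EC replicate 1 (-0.84) or SG EC replicate 2 (-0.86). In a fit to the compared groups alone, VIT_17s0000g07200 and VIT_17s0000g07210 were not called (adjusted p 0.106 and 0.128) and VIT_14s0068g00920 and VIT_14s0068g00930 were (adjusted p 0.00139 and 0.00977). Of all called loci, 37.6% were higher in SG EC with the deposited values and 49.6% under median-of-ratios scaling, and in NEC 59.3% and 47.9%.

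In day 40 callus every SG library lay below every CS library for all 9 loci. The share of all tested loci without such overlap was not counted. Day 40 libraries also agreed closely for loci in general. Over loci of at least 10 FPKM, the highest library exceeded the lowest by a median of 1.06-fold in SG and 1.07-fold in CS. The 5 called lower in SG were VIT_05s0136g00260 (-1.38 ± 0.42), VIT_04s0023g03370 (-0.91 ± 0.20), VIT_18s0001g14310 (-0.87 ± 0.31), VIT_17s0000g07200 (-1.32 ± 0.22) and VIT_17s0000g07210 (-1.10 ± 0.17). VIT_14s0068g00920, VIT_14s0068g00930, VIT_13s0067g02870 and VIT_13s0067g03820 had -1.57 ± 0.72, -1.52 ± 0.78, -0.71 ± 0.30 and -0.14 ± 0.31 and were not called. The calls moved with the spread used: with the closely agreeing day 40 groups alone in the fit 9 were called lower, and with each averaged into 1 sample 2 were, VIT_17s0000g07200 and VIT_17s0000g07210. The share of all tested loci called in those fits is not given here. VIT_13s0067g02870 was called lower after median-of-ratios scaling (-0.75, adjusted p 0.0409) and with a filter at a mean of 5 FPKM (adjusted p 0.0491). The call of VIT_18s0001g14310 was lost without replicate 3 of CS day 40 (-0.84) or of SG day 40 (-0.85). The B class marker sum also differed between the cultivars at day 40, as given above, and its part in the result was not tested. In anthers VIT_04s0023g03370 was higher in SG, at 219 ± 61.7 FPKM against 97.9 ± 7.06 in CS (1.12 ± 0.20, adjusted p 0.000139). The other 8 loci ranged from -1.16 for VIT_14s0068g00920 to -0.03 for VIT_17s0000g07210 and were not called, but without SG anther replicate 2 VIT_14s0068g00920, VIT_14s0068g00930, VIT_13s0067g02870 and VIT_18s0001g14310 were called lower in SG, at -2.11, -1.93, -0.91 and -1.10.

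**Figure D4:**
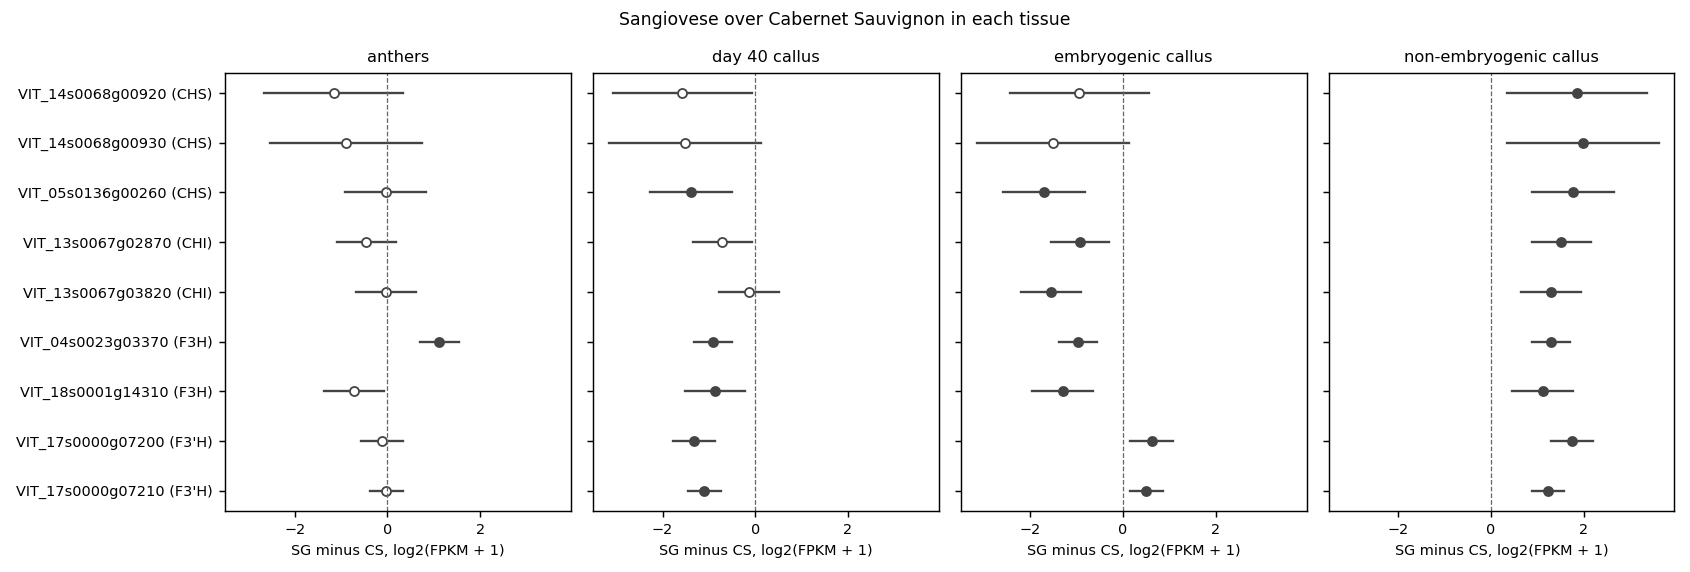
Log2 difference of SG over CS for each of the 9 loci in each tissue, with a line for the 95% interval, a filled point for a called locus and an open point for one not called. All 9 points lie above 0 in NEC and below 0 in day 40 callus.

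Measured against the anthers they came from, month 4 calli kept the F3'H loci and VIT_13s0067g03820 higher in both classes and both cultivars. In EC over anthers, 4 loci were higher and 3 lower in SG, beside 44.2% and 35.4% of all tested loci, and 4 higher and 1 lower in CS, beside 47.6% and 33.0%. In NEC over anthers, 5 were higher and 1 lower in SG, beside 37.8% and 39.7%, and 3 higher and 4 lower in CS, beside 34.9% and 43.7%. Most of these shares lie near the background. VIT_17s0000g07200 rose by 3.09 ± 0.22 in SG EC, 2.35 ± 0.22 in CS EC, 3.63 ± 0.22 in SG NEC and 1.76 ± 0.22 in CS NEC, and VIT_17s0000g07210 by 2.47 ± 0.17, 1.94 ± 0.17, 2.57 ± 0.17 and 1.31 ± 0.17. As ratios of mean FPKM, VIT_17s0000g07200 rose 10.0-fold, 6.19-fold, 14.6-fold and 3.98-fold in that order. For VIT_17s0000g07210, whose anther values understate log2 differences, the ratios were 10.9-fold, 7.17-fold, 11.7-fold and 4.22-fold. VIT_13s0067g03820 rose by 1.15 ± 0.31, 2.66 ± 0.31, 5.85 ± 0.31 and 4.51 ± 0.31 in the same order. VIT_05s0136g00260 fell in EC, with differences of -2.92 ± 0.42 in SG and -1.26 ± 0.42 in CS, and VIT_04s0023g03370 in SG EC (-2.06 ± 0.20) and in CS NEC (-0.66 ± 0.20). In CS NEC VIT_14s0068g00930 (-3.03 ± 0.78) and VIT_13s0067g02870 (-1.58 ± 0.30) fell as well. VIT_18s0001g14310 rose in SG NEC by 2.17 ± 0.31 and was not called in the other 3 comparisons with anthers.

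The anther libraries limit these calls. In EC over anthers, VIT_14s0068g00920 was called at 2.20 ± 0.72 in SG and 1.99 ± 0.72 in CS, and the SG value was 0.82 without SG anther replicate 1, while the CS call was lost without CS anther replicate 2 (1.62). VIT_14s0068g00930, not called at -1.55 ± 0.78 in SG EC and -0.15 ± 0.78 in SG NEC, was called lower without SG anther replicate 1, at -3.05 and -1.64. Without SG anther replicate 2 it stood at -0.52 in SG EC (adjusted p 0.513) and 0.88 in SG NEC, not called. Without SG anther replicate 1 the SG NEC rise of VIT_14s0068g00920 was 1.29 in place of 2.67 ± 0.72, the SG EC rise of VIT_13s0067g03820 was 0.76, and VIT_18s0001g14310 was called lower in SG EC at -0.75. The SG EC difference of VIT_13s0067g02870 was -1.11 ± 0.30 and, without SG anther replicate 2, -0.66, and leaving out that library gave calls in SG NEC for VIT_05s0136g00260 (1.40) and VIT_13s0067g02870 (0.85). The SG NEC call of VIT_04s0023g03370 (-0.48 ± 0.20) was lost without SG anther replicate 2 (-0.28) or 3 (-0.48), or SG NEC replicate 2 (-0.43) or 3 (-0.50). In CS, the EC call of VIT_05s0136g00260 was lost without CS EC replicate 1 (-1.02), and its NEC call (-0.99 ± 0.42) without CS NEC replicate 2 (-0.55) or any 1 of the CS anther libraries (-1.02 to -0.95). Without CS NEC replicate 2 the CS NEC difference of VIT_04s0023g03370 was -0.32 and VIT_18s0001g14310 was called higher at 0.69. After median-of-ratios scaling VIT_13s0067g02870 was called lower in CS EC (-0.92, adjusted p 0.00942) and VIT_05s0136g00260 was no longer called in CS NEC (-0.85, adjusted p 0.0749), with the median of all tested loci in CS EC at 0.01, against 0.22 as deposited. In a fit to the compared groups alone, VIT_14s0068g00920, VIT_13s0067g02870 and VIT_13s0067g03820 lost their calls in SG EC, VIT_14s0068g00920 and VIT_04s0023g03370 in SG NEC and VIT_05s0136g00260 and VIT_04s0023g03370 in CS NEC. Without the third libraries of anthers and EC, VIT_14s0068g00920 and VIT_05s0136g00260 lost theirs in CS EC.

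Within an enzyme step, the ratio between loci had different values in different tissues, in both cultivars. Ratios of loci within a library do not depend on how libraries were scaled. They are given as values, and differences between tissues in them were not tested. For VIT_14s0068g00920 with VIT_14s0068g00930, and VIT_17s0000g07200 with VIT_17s0000g07210, they rest on a split of reads that is uncertain, as stated above. Among CHS loci, VIT_14s0068g00930 over VIT_14s0068g00920 was 4.32 ± 1.07 in SG anthers and 2.86 ± 0.218 in CS anthers (mean of library ratios ± SD, n = 3 each). In callus the ratio was below 1 in all 18 libraries, with means from 0.237 in SG EC to 0.522 in SG day 40 callus. VIT_05s0136g00260 over VIT_14s0068g00920 was 0.229, 0.206 and 0.211 in SG EC and 0.252, 0.625 and 0.357 in CS EC, against 2.30, 2.23 and 2.23 in SG NEC and 2.64, 2.34 and 2.38 in CS NEC. VIT_14s0068g00920 was thus the leading locus of this pair in every EC library, and VIT_05s0136g00260 in every NEC library. In SG anthers this ratio was 52.3, 4.83 and 5.23, with replicate 1, where VIT_14s0068g00920 was below 1 FPKM, far above the others.

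Between the CHI loci, VIT_13s0067g02870 over VIT_13s0067g03820 was 20.4 ± 2.58 in SG anthers and 26.9 ± 1.40 in CS anthers. It was 0.834 ± 0.00314 and 1.24 ± 0.0572 in SG and CS day 40 callus, 4.05 ± 0.842 and 2.65 ± 0.903 in EC, and 0.424 ± 0.00968 and 0.368 ± 0.0839 in NEC. VIT_13s0067g02870 was therefore the higher CHI locus in every anther and EC library and VIT_13s0067g03820 in every NEC library. Between the F3H loci, VIT_18s0001g14310 over VIT_04s0023g03370 was 0.227 ± 0.0598 and 0.811 ± 0.114 in SG and CS anthers, 3.00 ± 0.0305 and 2.89 ± 0.0396 at day 40, 0.753 ± 0.220 and 0.931 ± 0.113 in EC, and 1.42 ± 0.144 and 1.62 ± 0.154 in NEC. VIT_18s0001g14310 exceeded VIT_04s0023g03370 in every day 40 and NEC library. The F3'H ratio, VIT_17s0000g07200 over VIT_17s0000g07210, had the narrowest range, with group means from 4.37 in CS EC to 8.66 in CS day 40 callus.

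**Figure D5:**
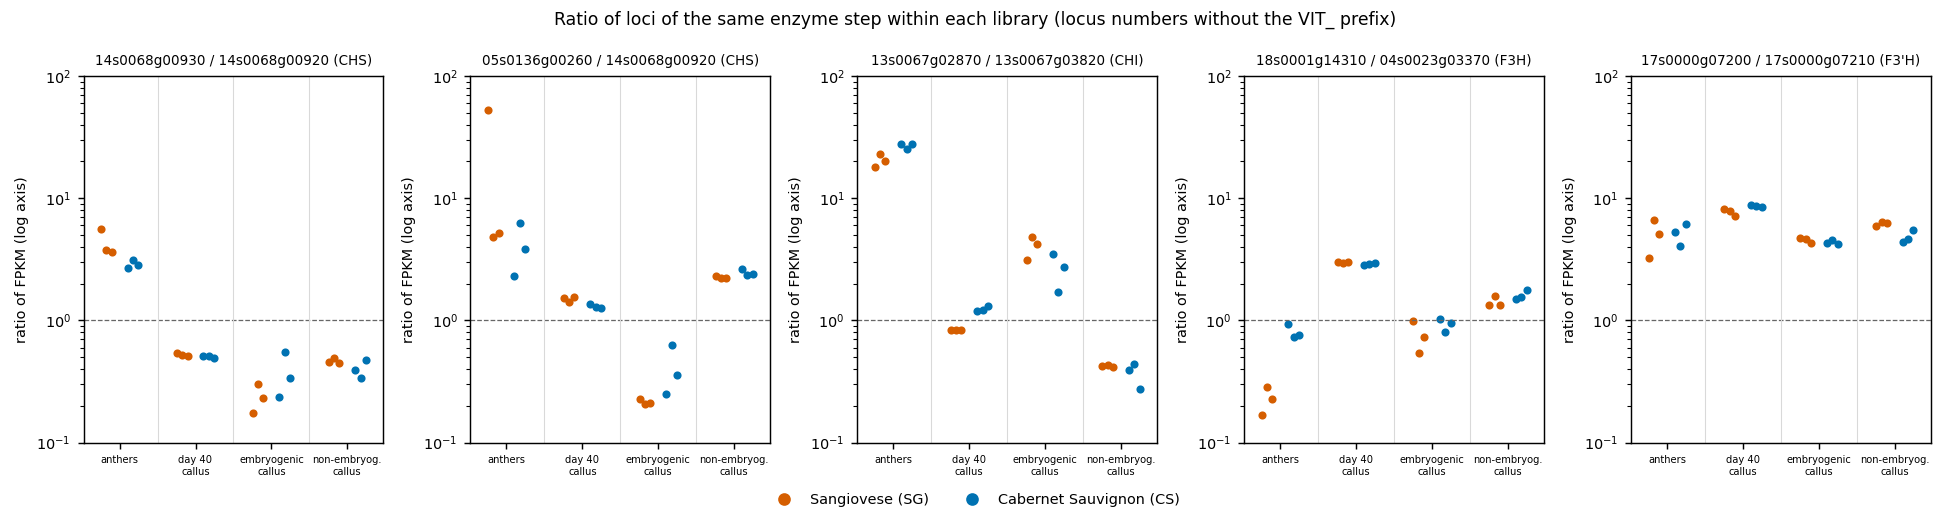
Ratio of FPKM (log axis) between loci of the same enzyme step within each library, by tissue, with SG in orange left of CS in blue, 1 point per library and a dashed line at a ratio of 1. The CHI ratio is highest in anthers, at 20.4 in SG and 26.9 in CS, and lowest in NEC.

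Across the 8 group means of log2(FPKM + 1), the 36 pairs among the 9 loci had Pearson correlations from 0.208 to 0.996, with a median of 0.763. The points share libraries and are a description of these groups. The pair most alike was VIT_17s0000g07200 and VIT_17s0000g07210 (r = 0.996). The split of reads between these loci is uncertain, as stated above, and its part in this likeness was not tested. VIT_14s0068g00930 was closest to VIT_13s0067g02870 (0.952), VIT_04s0023g03370 to VIT_13s0067g02870 (0.944) and VIT_05s0136g00260 to VIT_04s0023g03370 (0.940), while VIT_14s0068g00920 and VIT_13s0067g03820 were each closest to VIT_17s0000g07200 (0.903 and 0.834) and VIT_18s0001g14310 to VIT_05s0136g00260 (0.876). Beyond the 9 loci, 15519 others of at least 10 FPKM in their highest group were compared with the mean profile of the 9, and 17 of them had a correlation over 0.95. The 4 most alike were VIT_06s0004g00790 (0.992), VIT_03s0088g00260 (0.992), VIT_00s0261g00040 (0.984) and VIT_18s0001g09400 (0.978), whose identity is not given in the files. VIT_03s0088g00260 had 69.7 ± 2.63 FPKM in SG and 152 ± 4.90 in CS day 40 callus, and 2.57 ± 0.379 and 10.3 ± 2.52 in SG and CS EC against 17.1 ± 0.454 and 5.27 ± 2.76 in NEC.

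Other loci of the pathway, also listed by published assignments, shared the profile in part. Of 7 general phenylpropanoid loci, which supply the coumaroyl unit, 7 were lower in EC than in NEC in SG and 5 were lower and 1 higher in CS, beside 32.2% lower and 46.1% higher of all tested loci in SG and 27.9% and 51.4% in CS. The interaction was negative for 6 of the 7, beside 31.8% negative and 15.2% positive of all tested loci. VIT_06s0004g02620 of that list had 5.89 ± 0.552 FPKM in SG EC and 18.7 ± 1.32 in SG NEC, against 19.3 ± 6.79 in CS EC and 6.21 ± 1.81 in CS NEC, an interaction of -2.99 ± 0.25 (adjusted p 2.36e-08). VIT_06s0004g08150 was lower in EC in both cultivars, and more so in SG, with an interaction of -2.04 ± 0.33 (adjusted p 5.68e-05). Of 8 loci of the late branch, which makes flavonols, anthocyanins and flavan-3-ols, the interaction was negative for 4 and positive for 2, beside the same background. VIT_18s0001g12800 of this list stood at 20.0 ± 2.02 FPKM in SG EC and 147 ± 8.86 in SG NEC, and at 65.2 ± 6.69 in CS EC and 144 ± 20.7 in CS NEC, an interaction of -1.70 ± 0.15. VIT_04s0079g00690 had the opposite sign (3.10 ± 0.42), with 38.2 ± 25.3 FPKM in CS NEC and under 4 FPKM on average in all other groups.

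Of 9 listed regulators 7 were tested, and 4 of them had a negative and 2 a positive interaction, beside 31.8% and 15.2% of all tested loci. Those 2 were VIT_02s0033g00390 and VIT_02s0033g00410, which ran against the early enzymes in NEC. VIT_02s0033g00390 had 2.93 ± 0.734 FPKM in SG NEC and 90.7 ± 20.6 in CS NEC, and VIT_02s0033g00410 0.429 ± 0.274 and 11.7 ± 3.80, while all 9 early enzyme loci were higher in SG NEC. In EC both were below 0.1 FPKM on average, and VIT_02s0033g00410 was listed at 0 in all SG EC libraries (adjusted p of the interactions 6.16e-12 and 2.49e-09). Of 8 loci of the F3'5'H cluster, whose enzyme competes with F3'H and leads towards delphinidin, 3 passed the filter on low values. VIT_06s0009g02860 and VIT_06s0009g02840 passed it in CS day 40 callus, at 1.84 ± 0.0936 and 4.29 ± 0.240 FPKM, and were under 0.2 FPKM on average in EC and NEC of both cultivars, too low for the EC over NEC interaction to be read. VIT_06s0009g02910, named after its values were seen as the remaining tested locus of the cluster, had 5.24 ± 0.743 FPKM in SG EC, 5.08 ± 1.10 in SG NEC and 4.22 ± 0.464 in SG day 40 callus, and was listed at 0 in all CS libraries and in SG anthers. VIT_17s0000g07200 stood at 62.1 ± 2.33 FPKM in SG NEC.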

How the data were processed

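Expression was measured in 24 libraries, 3 in each of 8 groups, made from total RNA without strand information per the labels' protocols. The submitters' processing notes name CASAVA 1.8.2, TopHat2 2.0.9 and Cufflinks 2.1.1. Genome build, annotation and further scaling steps were not given in the sources used here. Values are FPKM for 29971 loci in a table deposited by the authors, read by sample title. Because 0 of the locus identifiers matched the reference gene table, no sequence is shown. The members and lists were chosen with earlier results of these data known.

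Since FPKM values are no counts, limma (version 3.58.1, R 4.3.3) was fitted to log2(FPKM + 1) for the 21568 loci, all 9 members among them, that reached 1 FPKM in 3 libraries. The 8 group means were estimated together from all libraries, with the spread allowed to vary with expression and 16 residual degrees of freedom. P-values were adjusted by Benjamini-Hochberg over all tested loci within each of 18 comparisons. The limma fit was tested on simulated data for EC over NEC in CS only. The simulation gave each locus the same spread in every group, unlike the real groups, and did not cover the interactions or scalings. Text names were limited to all members, the 4 most alike loci and, of each pathway list, the 2 loci with the smallest adjusted p in the EC over NEC interaction, apart from loci said to be chosen after their values were seen. Alternatives covered the pseudocount (0.1), the filter (none, or a mean of 5 FPKM), scaling (equal column sums, median of ratios) and fits to the compared groups alone. They also covered the replicate block, averaged day 40 groups and each library left out. A library was left out only for comparisons that hold its group. Leaving out the third libraries of anthers and EC was added after seeing the data. Depth per library is unknown, which limits the precision of low values.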

Additional observations from a re-analysis of the deposited data

Results flagged for a closer look

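The EC over NEC difference differed between the cultivars, by a test of the difference itself, for each of the 9 loci. The SG minus CS values on the log2 scale were -2.80 ± 1.01 (standard error) for VIT_14s0068g00920, -3.48 ± 1.10 for VIT_14s0068g00930, -3.48 ± 0.59 for VIT_05s0136g00260, -2.45 ± 0.43 for VIT_13s0067g02870 and -2.84 ± 0.44 for VIT_13s0067g03820. They were -2.27 ± 0.28 for VIT_04s0023g03370, -2.42 ± 0.44 for VIT_18s0001g14310, -1.14 ± 0.31 for VIT_17s0000g07200 and -0.73 ± 0.24 for VIT_17s0000g07210. In the same interaction 31.8% of all tested loci were called negative. CS NEC replicate 2, the lowest of its group for 9 of 9 loci, enters each of these values. Without it the interaction was -3.03 for VIT_05s0136g00260 and -2.48 for VIT_13s0067g03820, and VIT_14s0068g00920 and VIT_17s0000g07210 were no longer called.

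The day 40 over anthers difference also differed between the cultivars for 3 loci, at -2.03 ± 0.28 for VIT_04s0023g03370, -1.20 ± 0.31 for VIT_17s0000g07200 and -1.08 ± 0.24 for VIT_17s0000g07210. In the same interaction 21.3% of all tested loci were called lower and 28.3% higher, so such calls were common among loci in general. VIT_04s0023g03370 was the locus with higher anther values in SG than in CS.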

How the results depend on the processing

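Under the alternatives, 253 counts of called members stayed within 1.5 times the count given and 15 did not. With the replicate block all 18 counts and the calls of all 162 member values stayed the same, with 9 called in the EC over NEC interaction. Every group holds the same replicate numbers, so the log2 differences could not change and the block could alter only their spread. The replicate numbers are not stated to pair the libraries. In 0 of 28 group pairs were all same-number correlations over 0.1 (range -0.265 to 0.172). The limit of 0.1 was set without a reference, so this check cannot exclude pairing. Under median-of-ratios scaling 2 members were called in CS EC over NEC, 1 higher and 1 lower. Fits to the compared groups alone gave 4 in CS EC over NEC, 8 in SG NEC over day 40, 4 in SG EC over anthers and 9 in SG over CS at day 40. With each day 40 group averaged, where 1 sample stands for the group and its spread is taken from the other groups, they were 2 in SG NEC over day 40, 2 in SG over CS at day 40 and 1 in the day 40 over anthers interaction. Without the third libraries of anthers and EC, chosen after seeing the data, 3 were called in CS EC over anthers and 4 in SG over CS EC. Leaving out 1 library gave 4 to 7 in CS EC over NEC, 3 to 7 in the day 40 over anthers interaction, 1 to 5 in SG over CS anthers and 4 to 7 in SG over CS EC. The cause was not tested. The share of all tested loci called under each of these alternatives is not given here, so these counts describe the members alone. Where 0 members were called in a direction, 0 also passed at an unadjusted limma p under 0.05, except 1 lower in SG over CS anthers.

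Of the member values, 32 changed sign under an alternative, none of them called before or after. After median-of-ratios scaling CS EC over anthers was -0.25 for VIT_04s0023g03370 and -0.049 for VIT_18s0001g14310. With equal sums it was -0.046 for VIT_04s0023g03370, EC over NEC was 0.025 for VIT_17s0000g07210 in SG and 0.031 for VIT_18s0001g14310 in CS. Without the third libraries the day 40 over anthers interaction was 0.031 for VIT_14s0068g00920 and 0.011 for VIT_13s0067g03820, and SG NEC over anthers 0.32 for VIT_14s0068g00930. Leaving out 1 library gave these ranges. In SG over CS anthers they were -2.11 to 0.22 for VIT_14s0068g00920, -1.93 to 0.60 for VIT_14s0068g00930, -0.62 to 0.62 for VIT_05s0136g00260, -0.91 to 0.057 for VIT_13s0067g02870, -0.37 to 0.35 for VIT_13s0067g03820, -0.36 to 0.047 for VIT_17s0000g07200 and -0.092 to 0.037 for VIT_17s0000g07210. In the day 40 over anthers interaction they were -1.79 to 0.54 for VIT_14s0068g00920, -2.12 to 0.41 for VIT_14s0068g00930, -0.77 to 0.19 for VIT_13s0067g02870, -0.49 to 0.23 for VIT_13s0067g03820 and -0.55 to 0.24 for VIT_18s0001g14310. Over anthers they were -0.12 to 0.85 for VIT_13s0067g02870 and -1.64 to 0.88 for VIT_14s0068g00930 in SG NEC, -0.72 to 0.049 for VIT_14s0068g00920 in CS NEC, -0.75 to 0.028 for VIT_18s0001g14310 in SG EC and -0.013 to 0.088 for VIT_04s0023g03370 in CS EC. In EC over NEC they were -0.20 to 0.039 for VIT_17s0000g07210 in SG and -0.46 to 0.17 for VIT_18s0001g14310 in CS.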

Other observations

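VIT_02s0025g04720, a locus of the late branch list that was singled out after its values were seen, followed the early enzymes closely, with a Pearson correlation of 0.972 over the 8 group means with the mean profile of the 9 loci. It had 48.4 ± 48.0 FPKM in SG anthers and 58.5 ± 31.0 in CS anthers, 693 ± 3.32 and 841 ± 24.7 in SG and CS day 40 callus, 30.0 ± 1.98 and 78.1 ± 24.2 in EC, and 301 ± 18.2 and 71.4 ± 16.0 in NEC (SD, n = 3 each). A late branch locus with another pattern, VIT_18s0001g03470, also singled out after its values were seen, had 8.36 ± 3.37 FPKM in SG EC and 41.8 ± 24.7 in CS EC, against 1.07 ± 1.33 in SG NEC and 3.55 ± 3.44 in CS NEC. In the regulator list, VIT_15s0046g00170, singled out in the same way, had 25.6 ± 0.453 FPKM in SG day 40 callus and 177 ± 3.75 in CS day 40 callus. Its values were 5.19 ± 1.26 in SG EC and 16.8 ± 3.01 in SG NEC, and 21.9 ± 10.5 in CS EC and 6.46 ± 2.31 in CS NEC, the same directions as VIT_14s0068g00920, whose EC mean was above its NEC mean in CS and below it in SG.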
